A study of Mus musculus with 8 samples.

Results

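The Notch pathway genes described here are 10 genes chosen by name: the receptors Notch1, Notch2 and Notch3, the ligands Dll1, Dll3 and Jag2, the ubiquitin ligase Mib1, and the basic helix-loop-helix genes Hes1, Hes5 and Hes6. All 10 were found by symbol among the 51826 genes of each table. RNA came from hypothalamic cells of C57BL/6 mouse fetuses at embryonic day 14.5, sorted for red fluorescent protein (RFP). The 4 heterozygous libraries (Het, numbered 1 to 4) carried Ptf1a cre/+ with Ai9/+, and the 4 homozygous libraries (Homo, numbered 9 to 12) carried Ptf1a cre/cre with Ai9/+. Every library therefore carried at least 1 cre copy at Ptf1a and 1 Ai9 copy, an RFP reporter that Cre switches on, and no library came from animals without Cre. The labels call these samples control and KO. RFP marks cells that expressed Ptf1a-cre and their descendants, so the sorted population is a lineage and not a single cell type. Nothing in the labels ties a library to its own embryo or pool, so the p-values speak only of library-to-library spread, part of which may be technical.

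Notch signalling passes between neighbouring cells. A ligand of the Delta or Jagged family, internalized with the help of Mib1, pulls on a Notch receptor, and the cleaved receptor fragment joins the DNA-binding protein Rbpj in the nucleus to switch on genes such as Hes1 and Hes5. In the embryonic nervous system Hes1 and Hes5 repress proneural genes and keep cells as progenitors, while Dll1 is expressed by cells that are becoming neurons. Rbpj is also a subunit of the PTF1 complex, in which Ptf1a and an E protein bind DNA together with it.

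Exon reads per library ranged from 2502387 to 3009181. Ptf1a itself had 1 exon read over the Het libraries and 0 over the Homo libraries, too few for a check of the genotypes. Markers of the labelled tissue were present: the 8 hypothalamic markers, with Isl1 the highest and Sim1 the lowest on average, summed to between 834 and 1057 CPM (reads per 1000000, on scaled library sizes) in Het and between 943 and 1277 CPM in Homo libraries. The 7 neuron markers, from Map2 down to Snap25, summed to between 5855 and 7404 CPM, and the 8 radial glia and progenitor markers, from Vim down to Rax, to between 579 and 1125 CPM. In edgeR 4 of the 7 neuron markers rose and 1 fell, and 1 of the 8 hypothalamic markers rose and 3 fell, where 13.1% of all tested genes were called. After a correction for GC content each of these lists had 1 marker called higher and 0 called lower, where 2.43% of genes were called. Libraries Het 3 and Homo 12 stood apart in blood vessel markers, and results that rest on them are given with and without them.

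Of the 10 genes, Mib1 was higher and Jag2 was lower in Homo libraries, and the other 6 that could be tested did not pass. Mib1 rose by 0.64 ± 0.14 on the log2 scale (SE; edgeR quasi-likelihood test, Benjamini-Hochberg adjusted p = 0.0112) and Jag2 fell by 0.62 ± 0.19 (adjusted p = 0.0477), with n = 4 libraries per genotype. Over all 12257 tested genes the same test called 13.1%, of which 853 were higher (6.96%) and 750 lower (6.12%). With 8 genes tested, 2 calls are too few to set them apart from that background. The median log2 fold change of the 8 was -0.33, against 0.04 over all tested genes. Hes1 and Hes5 fell under the low-count filter. The CPM ranges of the genotypes did not overlap for 3 of the 10, with Mib1 higher and Dll1 and Jag2 lower in Homo, against 19.6% of all tested genes (10.3% higher, 9.34% lower). In bulk libraries such as these, fewer cells of a type and less RNA per cell cannot be told apart.

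**Figure D1:**
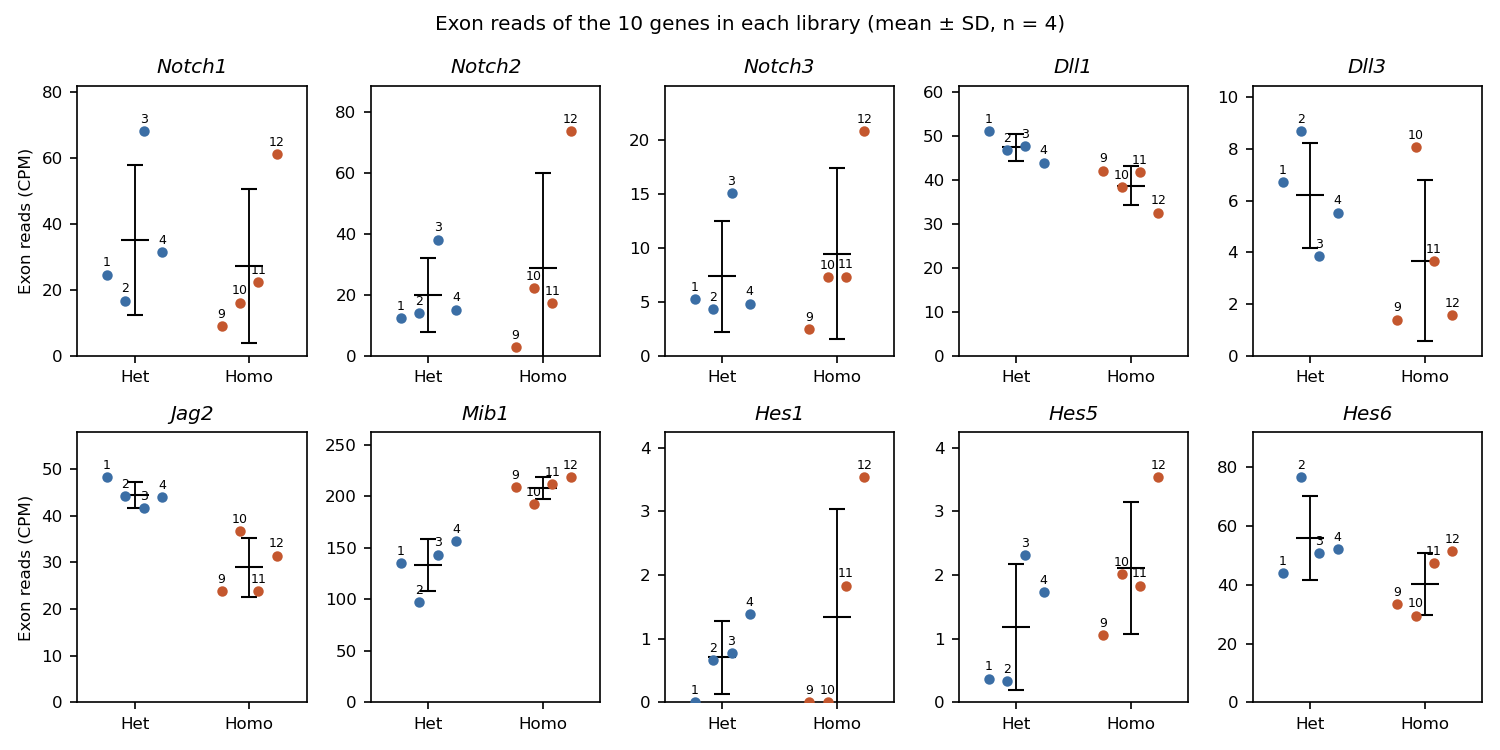
Exon reads in CPM (y axes, from 0) of the 10 genes in the 4 Het and 4 Homo libraries. Points are libraries with their numbers, bars are mean ± SD, cut off at 0 where the SD exceeds the mean. Jag2 and Dll1 lie lower and Mib1 lies higher in every Homo library than in any Het library, and Notch1, Notch2 and Notch3 peak in libraries Het 3 and Homo 12.

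Levels per length, as RPKM deposited by the authors, put Hes6 first and Hes1 last. Mean RPKM over the 8 libraries was 7.57 ± 2.90 (SD) for Hes6, 4.56 ± 1.16 for Mib1, 2.91 ± 0.752 for Dll1 and 1.70 ± 0.568 for Jag2. The others followed under 1 RPKM on average, at 0.592 ± 0.485 for Notch2, 0.592 ± 0.380 for Notch1 and 0.493 ± 0.307 for Dll3. Hes5 stood at 0.316 ± 0.178 RPKM, Notch3 at 0.277 ± 0.182 RPKM and Hes1 at 0.128 ± 0.143 RPKM. By genotype, Hes6 and Mib1 stood at 9.29 ± 3.14 and 3.77 ± 0.489 RPKM in Het and at 5.85 ± 1.34 and 5.34 ± 1.11 RPKM in Homo libraries, and Mib1 was above Hes6 in Homo 9 and Homo 10. The deposited RPKM are not on the scaled library sizes of the CPM, so genotypes are better compared in CPM. In CPM the Het and Homo means were 55.9 and 40.4 for Hes6 and 133 and 208 for Mib1. The ranges over libraries overlapped between every pair of neighbours in this order. Such ranges do not pair the genes within a library, and Dll1 lay above Jag2 in every library. Across the whole order the ranges did not overlap: the lowest Hes6 library, at 3.86 RPKM, lay above the highest Hes1 library, at 0.414 RPKM.

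Notch1, Notch2 and Notch3, the receptors, varied more between libraries of a genotype than between genotypes. Notch1 (ENSMUSG00000026923, GRCm38 chromosome 2, 26457903 to 26516663, minus strand) had 24.6, 16.7, 68.2 and 31.5 CPM in Het libraries 1, 2, 3 and 4. In Homo libraries 9, 10, 11 and 12 it had 9.12, 16.1, 22.4 and 61.2 CPM. Library 3 was highest among Het and library 12 among Homo, and the genotypes overlapped (log2 -0.37 ± 0.50, edgeR adjusted p = 0.665). Notch2 (ENSMUSG00000027878, chromosome 3, 98013527 to 98150361, plus strand) showed the same high libraries, with 12.3, 14.03, 38.1 and 15.2 CPM in Het and 2.81, 22.2, 17.2 and 73.8 CPM in Homo libraries. Its fold change did not pass (log2 0.54 ± 0.63, adjusted p = 0.609). Notch3 (ENSMUSG00000038146, chromosome 17, 32120820 to 32166880, minus strand), a receptor of vascular smooth muscle and pericytes among other cells, had 5.23, 4.34, 15.03 and 4.84 CPM in Het libraries. Its Homo libraries had 2.46, 7.27, 7.33 and 20.8 CPM, again lowest in library 9 and highest in library 12 (log2 0.36 ± 0.61, adjusted p = 0.739). Only 70.2% of the Notch3 exon reads mapped uniquely. Gm17276 overlaps Notch3 on the other strand, with 10 exon reads in Het and 19 in Homo libraries. Notch1 is overlapped on the other strand by 0610009E02Rik, with 0 exon reads in Het and 18 in Homo libraries. Gm13568 also overlaps it there, with 1 in Het and 11 in Homo libraries. The coefficient of variation (CV) of Notch1, Notch2 and Notch3 was 64.6%, 61.2% and 69.6% in Het and 85.7%, 107% and 83.4% in Homo libraries, where counting error alone would give between 10.2% and 22.4%.

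The direction of each receptor turned on a single library. Without library Het 3 Notch1 was at log2 0.11 (adjusted p = 0.894). Without Homo 12 Notch2 was at -0.51 (adjusted p = 0.615) and Notch3 at -0.37 (adjusted p = 0.772). Without both libraries, an alternative chosen after seeing the data, the log2 fold changes were -0.61 ± 0.36 for Notch1, 0.01 ± 0.52 for Notch2 and 0.24 ± 0.70 for Notch3, and 0 of the 3 passed in edgeR. With all libraries 0 of the 3 passed in edgeR, 0 at an unadjusted p under 0.05 and 0 in DESeq2, which gave no adjusted p for Notch3.

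Markers of blood vessels were highest in the same 2 libraries. The 6 endothelial markers, from Kdr (a receptor for vascular endothelial growth factor) down to Emcn, summed to 128 CPM in Het 3 against 3.73 to 18.3 CPM in the other Het libraries, and to 172 CPM in Homo 12 against 7.72 to 31.2 CPM. Of these 6 genes, 5 were highest in both libraries, while Kdr was at 0 in Het 1 and Cldn5, an endothelial junction protein, at 0 in Het 1 and Homo 9. The 7 pericyte and mesenchyme markers, from Rgs5, a pericyte signalling regulator, down to Kcnj8, summed to 38.2 CPM in Het 3 against at most 22.1 CPM, and to 149 CPM in Homo 12 against at most 43.6 CPM. Among them 4 of 7 peaked in both libraries, and Col1a1, a fibroblast collagen, was at 0 in the 4 Het libraries and in Homo 9 but at 28.3 CPM in Homo 12. The radial glia and progenitor list, in which 7 of 8 peaked in both libraries, summed to 895 CPM in Het 3 against at most 639 CPM and to 1125 CPM in Homo 12 against at most 749 CPM. Sox2 was the exception, at 205 CPM in Het 3 and at its lowest over all libraries, 191 CPM, in Homo 12. The 5 erythroid markers, from Hba-a2 down to Hba-a1, summed to 103 CPM in Het 3 against at most 52.6 CPM and to 81.7 CPM in Homo 12 against at most 28.6 CPM. Between genotypes 0 of the 3 endothelial, 4 pericyte, 7 radial glia and 5 erythroid markers that could be tested passed in edgeR (0, 0, 1 and 0 at an unadjusted p under 0.05, and 0 in DESeq2). Notch1, Notch2 and Notch3 together summed to 121 CPM in Het 3 against 35.1 to 51.5 CPM, and to 156 CPM in Homo 12 against 14.4 to 46.9 CPM. Of the 10 genes, Notch1, Notch2, Notch3 and Hes5 had their highest Het value in library 3 and their highest Homo value in library 12, a pattern looked for after the values were seen and shown by 11.2% of all tested genes. The part of these other cells in the receptor reads was not tested.

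**Figure D2:**
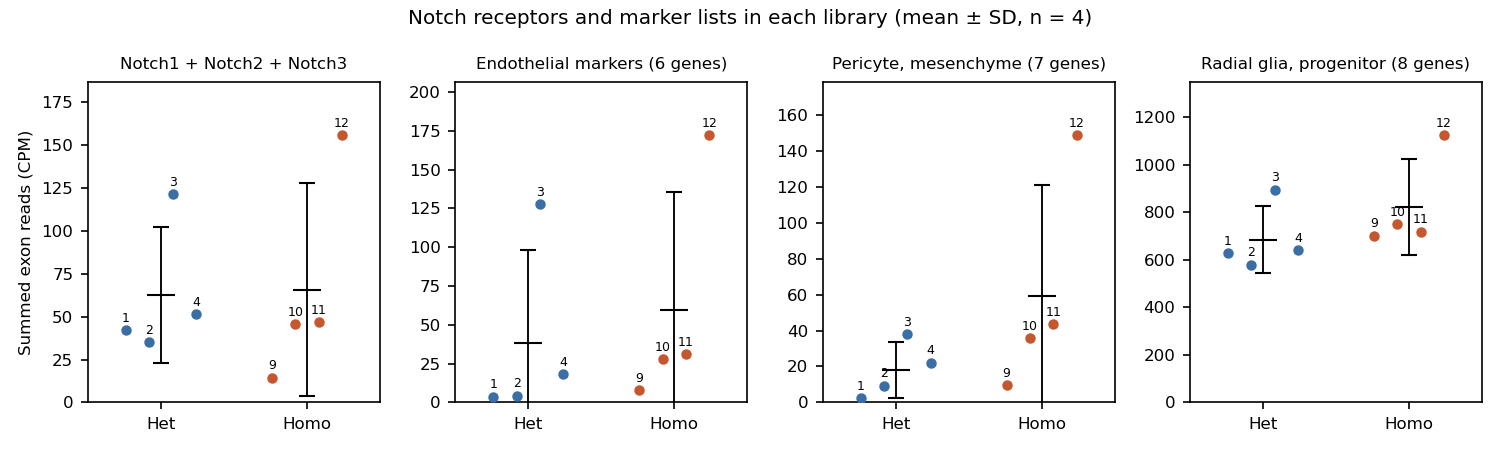
Summed exon CPM (y axes, from 0) of Notch1, Notch2 and Notch3 and of 3 marker lists in each library, with mean ± SD, cut off at 0. Libraries Het 3 and Homo 12 are the highest of their genotype in all 4 panels.

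The ligand Jag2 was lower in Homo libraries. Jag2 (ENSMUSG00000002799, chromosome 12, 112907819 to 112929776, minus strand) had 48.2, 44.1, 41.6 and 43.9 CPM in Het libraries 1 to 4. The Homo libraries 9, 10, 11 and 12 held 23.9, 36.7, 23.8 and 31.4 CPM, each below the lowest Het library. Its mean went from 44.5 ± 2.73 to 28.9 ± 6.29 CPM (SD, n = 4; exact permutation p = 0.0286, two-sided, the smallest that 4 against 4 libraries allow). The edgeR call was lost after a per-library correction for GC content (log2 -0.11 ± 0.20, adjusted p = 0.83) and without library 1, 2, 4, 9, 11 or 12, where the adjusted p reached 0.123 and the log2 fold change lay between -0.66 and -0.54. Over all alternatives its adjusted p ranged from 0.0178 to 0.83.

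Dll1, the Delta ligand of differentiating neural cells, lay slightly lower in every Homo library without passing. Dll1 (ENSMUSG00000014773, chromosome 17, 15367354 to 15376872, minus strand) had 51.2, 46.8, 47.8 and 43.9 CPM in Het libraries and 42.1, 38.3, 41.8 and 32.6 CPM in Homo libraries. The highest Homo library, at 42.1 CPM, lay just under the lowest Het library, at 43.9 CPM (exact permutation p = 0.0286; log2 -0.29 ± 0.16, edgeR adjusted p = 0.255). With exon-exon reads and with gene reads Dll1 was at -0.72 and -0.73 (adjusted p = 0.384 and 0.171). A long noncoding RNA gene, A930024N18Rik, overlaps Dll1 on the other strand and had 144 exon reads in Het and 135 in Homo libraries. Uniquely mapped reads made up 85.0% of the exon reads of Dll1, and strand use in counting is not given in the sources used here, so its values are uncertain to that extent. Dll3, a divergent Delta ligand that inhibits Notch within its own cell, was read little (ENSMUSG00000003436, chromosome 7, 28293553 to 28302238, minus strand). It had 18, 26, 10 and 16 exon reads in Het and 4, 20, 10 and 4 in Homo libraries. Library 10 lay among the Het values, and the difference was not detectable at this depth (log2 -0.76 ± 0.63, adjusted p = 0.457). Without Homo 10 it was at -1.47 ± 0.69 (adjusted p = 0.207), and leaving out other libraries gave values up to -0.51.

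Mib1, which ubiquitinates Delta and Jagged ligands so that they can be internalized, was higher in Homo libraries. Mib1 (ENSMUSG00000024294, chromosome 18, 10725548 to 10818704, plus strand) had 135, 97.6, 143 and 157 CPM in Het libraries 1 to 4. In Homo libraries 9 to 12 it had 209, 193, 212 and 218 CPM, all above the highest Het library. Its mean was 133 ± 25.3 CPM in Het and 208 ± 11 CPM in Homo (exact permutation p = 0.0286). The call held in each of the 8 fits without a library, at log2 0.51 to 0.72, and with reads that span exon-exon junctions (log2 0.78 ± 0.23, adjusted p = 0.0286; 11% of 7066 genes were called with these reads, 6.96% higher and 4.05% lower). It was lost after the GC correction (log2 0.29 ± 0.12, adjusted p = 0.224) and with all reads of the gene (log2 0.23 ± 0.18, adjusted p = 0.400), and over all alternatives its adjusted p ranged from 0.000778 to 0.898.

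Hes1 and Hes5, the classical Notch targets, were close to the floor of these libraries. Hes1 (ENSMUSG00000022528, chromosome 16, 30064384 to 30067796, plus strand) had 0, 2, 2 and 4 exon reads in Het and 0, 0, 5 and 9 in Homo libraries. A count of 0 in library Het 1, Homo 9 or Homo 10 allows up to 1.12, 1.05 or 1.21 CPM, counting 3 reads as the limit, for counting error only. Hes5 (ENSMUSG00000048001, chromosome 4, 154960923 to 154962371, plus strand) had 1, 1, 6 and 5 exon reads in Het and 3, 5, 5 and 9 in Homo libraries. Only 45.7% of its exon reads mapped uniquely, and Gm20421 overlaps it on the other strand with 16 exon reads in Het and 3 in Homo libraries. Both genes reached their maximum of 9 reads in Homo 12, the library with the highest summed vessel and progenitor markers. Without the low-count filter the fits gave log2 0.74 ± 1.45 for Hes1 and 0.68 ± 1.25 for Hes5 (edgeR adjusted p = 0.795 and 0.774), so a difference was not detectable at this depth.

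Hes6, which counteracts Hes1 and is expressed as neurons differentiate, had the highest mean RPKM of the 10 over the 8 libraries. Hes6 (ENSMUSG00000067071, chromosome 1, 91411483 to 91414038, minus strand) had 44.1, 76.5, 50.9 and 52.2 CPM in Het and 33.3, 29.5, 47.3 and 51.4 CPM in Homo libraries. Library 2 was highest and libraries 9 and 10 lowest, and the genotypes overlapped (log2 -0.47 ± 0.22, edgeR adjusted p = 0.173). Without Het 2 it was at -0.29 ± 0.22 (adjusted p = 0.475), with exon-exon reads at -0.19 (adjusted p = 0.774) and with gene reads at -1.005 (adjusted p = 0.134). Hes6 passed without a low-count filter (log2 -0.61, adjusted p = 0.0404), a fit in which the median over all tested genes moved from 0.04 to 0.38, and its value changed sign after the GC correction (log2 0.04). Summed over libraries, Hes6 had 630 and 428 exon reads in Het and Homo, against 8 and 14 for Hes1 and 13 and 22 for Hes5.

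Promoter windows from RefSeq (GRCm38.p6), which run from 250 bases before to 50 bases after an annotated start, were found for 8 of the 10 genes. Dll1 and Hes6 had 2 windows, of which 1 is described here, so the matches below hold for the window given. The RefSeq start lay 12841 bases from the gene start of the coordinates above for Notch1, 453 for Dll3 and 281 for Jag2, and at most 60 for the others. They were searched on both strands for TGGGAA, the core that Rbpj binds, and CANNTG, the E-box bound by basic helix-loop-helix factors such as Ptf1a. TGGGAA was found in 25.6% and CANNTG in 72.3% of 32851 windows of the same length. Hes5 alone of the 8 held TGGGAA, with matches at 226 and 82 bases before the start. An E-box was found in 4 of the 8, Dll1, Dll3, Hes5 and Hes6, with 3 matches each in Dll1 and Hes6. No match of TGGGAA overlapped an E-box. The windows of Hes5, the only holder of the Rbpj core, and of Dll1, Hes6 and Jag2, the ligands and target with the most reads, are printed 5′ to 3′ with both motifs in capitals. They lie at chr4:154960673-154960972 on the plus strand (Hes5), and on the minus strand at chr17:15376883-15377182 (Dll1), chr1:91413989-91414288 (Hes6) and chr12:112929446-112929745 (Jag2).
Hes5: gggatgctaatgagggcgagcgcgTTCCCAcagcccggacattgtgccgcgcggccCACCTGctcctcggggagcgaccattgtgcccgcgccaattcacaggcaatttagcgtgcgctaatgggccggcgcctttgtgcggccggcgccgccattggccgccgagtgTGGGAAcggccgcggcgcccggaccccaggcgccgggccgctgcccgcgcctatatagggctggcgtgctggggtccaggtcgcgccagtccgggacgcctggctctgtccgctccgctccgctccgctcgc
Dll1: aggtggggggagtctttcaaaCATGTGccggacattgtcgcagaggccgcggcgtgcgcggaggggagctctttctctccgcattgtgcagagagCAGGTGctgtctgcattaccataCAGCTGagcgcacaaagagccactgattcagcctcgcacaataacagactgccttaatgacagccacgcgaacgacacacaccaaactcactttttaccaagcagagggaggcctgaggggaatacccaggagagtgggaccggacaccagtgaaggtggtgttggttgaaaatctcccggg
Hes6: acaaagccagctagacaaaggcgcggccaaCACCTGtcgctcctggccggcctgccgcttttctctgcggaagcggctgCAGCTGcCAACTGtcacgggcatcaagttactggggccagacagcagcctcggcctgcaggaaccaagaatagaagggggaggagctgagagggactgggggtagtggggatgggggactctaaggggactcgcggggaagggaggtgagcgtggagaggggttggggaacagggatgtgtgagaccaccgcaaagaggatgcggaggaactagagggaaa
Jag2: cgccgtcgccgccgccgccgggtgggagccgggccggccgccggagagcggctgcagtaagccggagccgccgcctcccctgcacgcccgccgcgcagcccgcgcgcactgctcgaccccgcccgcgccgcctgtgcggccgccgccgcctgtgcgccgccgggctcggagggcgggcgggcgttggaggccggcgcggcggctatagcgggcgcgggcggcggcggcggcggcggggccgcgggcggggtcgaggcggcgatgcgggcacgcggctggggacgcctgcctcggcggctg
In the Hes5 window the first capitals are the Rbpj core read on the opposite strand, followed by the E-box and by the core on the printed strand. The Dll1 and Hes6 windows hold 3 E-boxes each. The Jag2 window has no capitals and a GC content of 86.0%, against a median of 52.7% over all windows. A match is a description of letters, not evidence of a bound site.

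Intron reads, which can come from unspliced RNA in total RNA libraries such as these, gave a second measure of each gene. Their origin was not tested. None of the 7 genes with enough intron reads passed in edgeR (1 at an unadjusted p under 0.05, Jag2; 0 in DESeq2), where 0.564% of 17010 tested genes did (0.0294% higher, 0.535% lower). Jag2 introns had 18.9, 19.3, 16.8 and 14.2 CPM in Het and 10.3, 9.52, 8.96 and 12.1 CPM in Homo libraries. Each Homo library was below each Het library here too, as in the exon reads (log2 -0.75 ± 0.27, adjusted p = 0.161). Mib1 introns had 52.9, 51.0, 54.2 and 42.0 CPM in Het and 68.0, 38.9, 47.8 and 52.1 CPM in Homo libraries. The Mib1 genotypes overlapped in introns, and the log2 fold change was 0.05 ± 0.22 (adjusted p = 0.898), beside 0.64 ± 0.14 in exon reads. For the receptors the intron fold changes were 0.18 ± 0.52 for Notch1, 0.40 ± 0.30 for Notch2 and 0.46 ± 0.53 for Notch3, with adjusted p of 0.83, 0.373 and 0.572. Notch2 introns had 23.7, 40.6, 39.9 and 44.2 CPM in Homo 9, 10, 11 and 12, beside 2.81, 22.2, 17.2 and 73.8 CPM in exons, with library 9 lowest and library 12 highest in both.

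**Figure D3:**
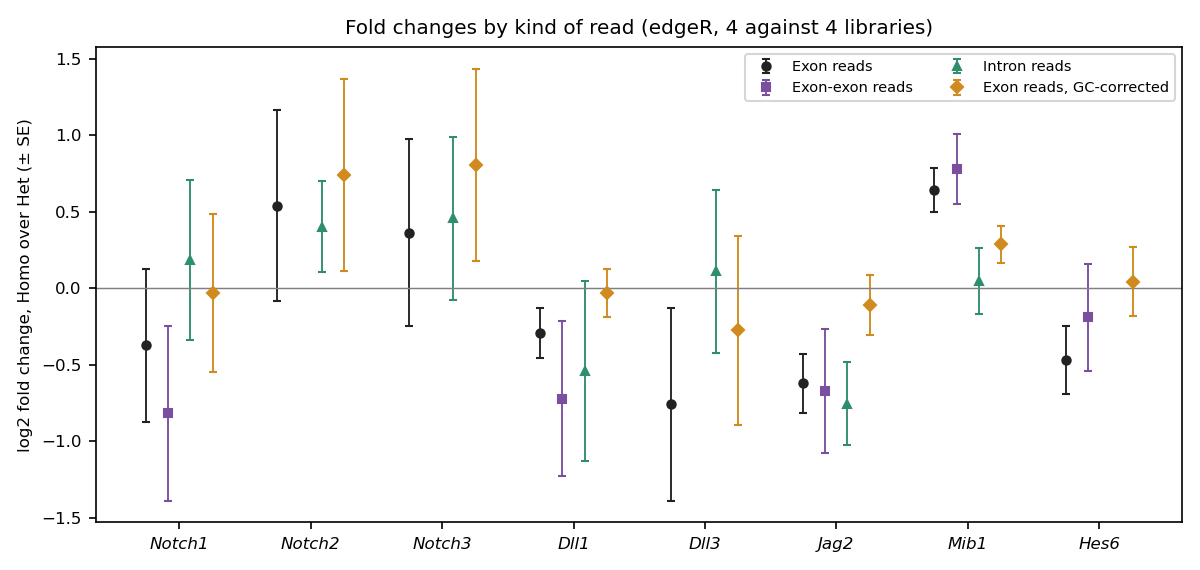
log2 fold change of Homo over Het (y axis, ± SE) of the 8 tested genes by edgeR, from exon reads, exon-exon reads, intron reads and GC-corrected exon reads. Mib1 is at 0.64 in exon reads and 0.05 in intron reads, Jag2 is below 0 in all 4 measures, and the receptors have SEs of 0.30 to 0.63 in exon, intron and GC-corrected reads.

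The share of a gene's reads that fell in introns differed widely among the genes, from Notch2 down to Hes6. In Het and Homo libraries it was 68.4% ± 9.99 and 83.1% ± 12.3 for Notch2, 31.7% ± 18.2 and 59.5% ± 13.3 for Notch1, and 37.1% ± 8.57 and 49.1% ± 6.93 for Jag2 (SD, n = 4). Mib1 had 36.6% ± 6.85 and 39.8% ± 4.34, Dll1 14.5% ± 5.95 and 17.1% ± 6.70, and Hes6 5.96% ± 3.14 and 8.44% ± 2.62. All 6 had a higher mean share in Homo libraries, and the genotypes overlapped for each. None of the 6 comparisons had an unadjusted exact permutation p under 0.05, the smallest being 0.0571 for Notch1 and 0.0857 for Notch2. The median intron share over 10361 tested genes ranged from 31.6% to 45.8% in Het and from 37.3% to 51.5% in Homo libraries, lowest in libraries 1, 2 and 9. Pooled over all genes, the intron share ran from 63.8% to 70.9% in Het and from 59.6% to 69.2% in Homo libraries. The pooled share was thus not higher in Homo, unlike the median. How much of the genes' shares follows these differences of whole libraries was not tested.

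**Figure D4:**
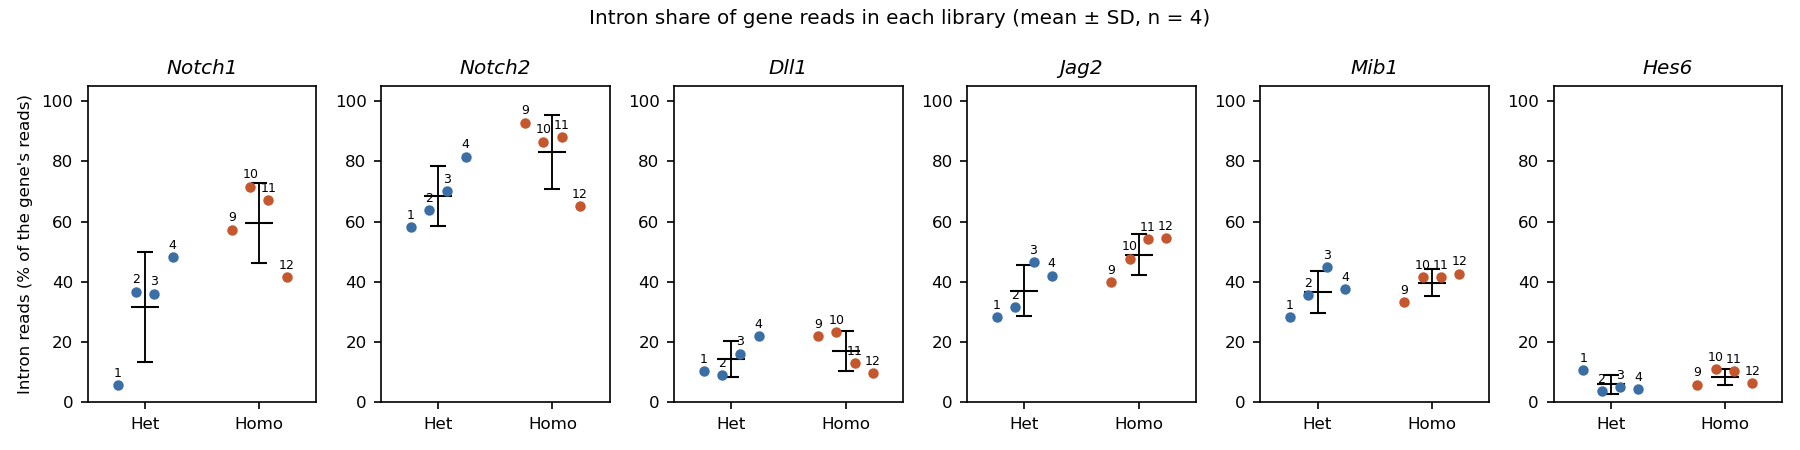
Intron reads as a percentage of all reads of the gene (y axes) for 6 genes in each library, with mean ± SD of 4 libraries per genotype. Notch2 lies highest, at 58.2% to 92.9%, and Hes6 lowest, at 3.78% to 10.98%, with overlap of the genotypes in each panel.

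Genes called in either direction differed in the GC content of their transcripts. Genes called higher over the whole table had a median GC content of 43.1%, those called lower 56.7% and those not called 49.5%. Mib1, the member that rose, has a GC content of 43.4%, and Jag2, the member that fell, 61.9%. Of the others, Hes6 (61.7%), Dll3 (61.0%), Notch1 (57.1%) and Dll1 (54.9%) also lay below 0 in exon reads, while Notch3 (59.6%) and Notch2 (53.6%) lay above 0. After the per-library GC correction 0 of the 8 tested genes passed in edgeR (1 at an unadjusted p under 0.05, Mib1), against 2.43% of 12238 genes (1.38% higher, 1.05% lower). The corrected values were near 0 for Dll1 (log2 -0.03 ± 0.16), Hes6 (0.04 ± 0.23) and Notch1 (-0.03 ± 0.52), and 0.74 ± 0.63 and 0.81 ± 0.63 for Notch2 and Notch3. The corrected median of the 8 was 0.01.

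**Figure D5:**
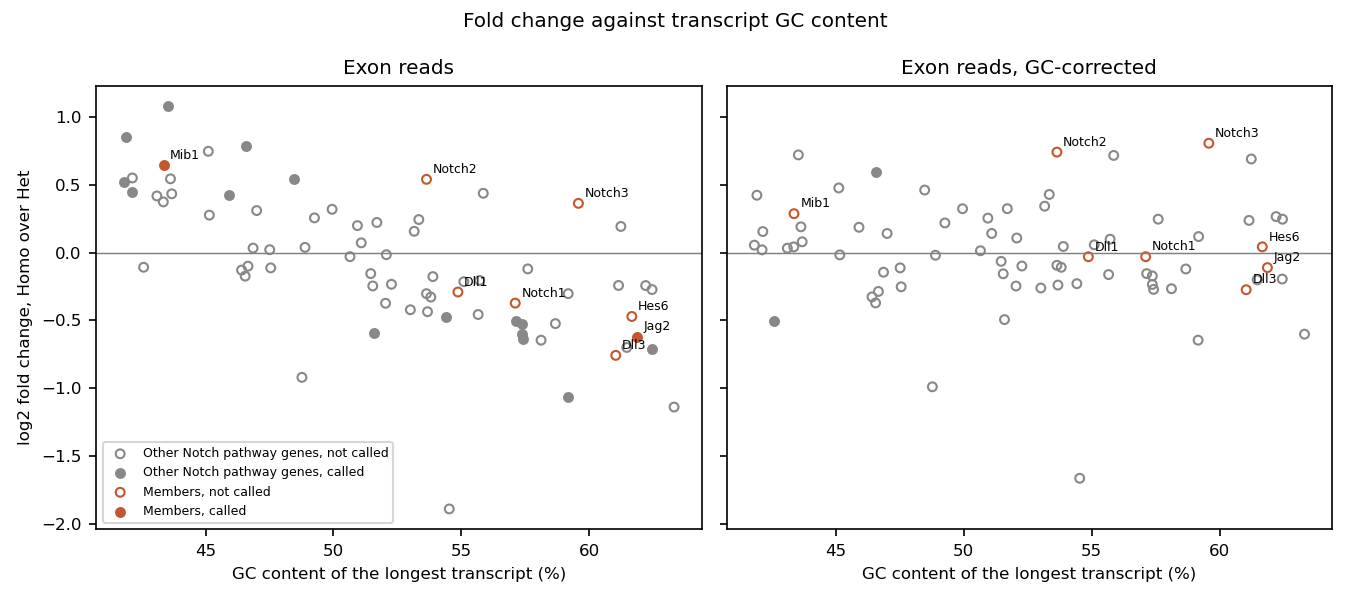
log2 fold change of Homo over Het (y axis) against the GC content of the longest annotated transcript (x axis, %) for the 8 tested genes and 65 other Notch pathway genes, in exon reads and after GC correction. Filled points were called: 1 higher and 1 lower of the 8 genes and 7 higher and 8 lower of the 65 before correction, and 0 of the 8 and 2 of the 65 after it.

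Other Notch pathway genes changed in both directions. Of 78 listed genes 65 were tested, of which 7 rose, 8 fell and 50 did not pass, with a median log2 fold change of -0.12 (13.1% of all tested genes were called, median 0.04). After the GC correction 1 was higher and 1 lower. In intron reads 0 of 60 passed in edgeR, where 0.564% of all tested genes were called. Of the 60, 17 were at an unadjusted p under 0.05 and 4 were called in DESeq2, without a share over all genes to set beside them. Among the 20 genes of the nuclear complex and its corepressors, 4 rose, 3 fell and 13 did not pass. The histone deacetylase gene Hdac2 rose from 288 ± 21.6 to 521 ± 32.8 CPM (log2 0.85 ± 0.11, adjusted p = 0.0011). Cir1, a corepressor that binds Rbpj, rose from 27.1 ± 4.59 to 57.3 ± 8.62 CPM (log2 1.08 ± 0.19, adjusted p = 0.00338). The Groucho-family genes Tle2 (43.0 ± 4.05 to 20.6 ± 3.94 CPM, log2 -1.06 ± 0.20, adjusted p = 0.00491) and Aes (343 ± 55.3 to 227 ± 26.8 CPM, log2 -0.60 ± 0.14, adjusted p = 0.0135) fell. The correction for GC left Hdac2, Cir1, Tle2 and Aes at log2 0.42, 0.72, -0.65 and -0.24, and 0 of these 4 passed in edgeR (adjusted p 0.0549 to 0.339). Cir1 was not called with unique exon reads (log2 0.61 ± 0.42, adjusted p = 0.348), nor Tle2 with exon-exon reads (-1.16 ± 0.40, adjusted p = 0.0611). Aes was not called without Homo 12 (log2 -0.52, adjusted p = 0.0518). The other calls of this group, named after their values were seen, were Snw1 and Ncor1, which rose (log2 0.52 and 0.54), and the acetyltransferase gene Kat2a, which fell (-0.64). With the GC correction Snw1, Ncor1 and Kat2a were at 0.05, 0.46 and -0.27, and none passed. Rbpj, the DNA-binding subunit shared with the PTF1 complex, stood at 167 ± 20.1 and 226 ± 33.8 CPM and did not pass (log2 0.43 ± 0.14, adjusted p = 0.0522; 0.08 after the GC correction).

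Among 13 inhibitors and turnover factors 12 were tested, and 2 rose, 2 fell and 8 did not pass. Over all tested genes 13.1% were called. Fbxw7, the substrate receptor of a ubiquitin ligase that degrades the cleaved Notch fragment, had 94.3 ± 11.4 CPM in Het and 162 ± 19.3 CPM in Homo libraries, and so rose (log2 0.79 ± 0.14, adjusted p = 0.00335). It was the only listed gene called before and after the GC correction (log2 0.59 after, adjusted p = 0.0268), but it did not pass with unique exon reads (0.65 ± 0.22, adjusted p = 0.0569), with gene reads (0.26 ± 0.19, adjusted p = 0.353) or with intron reads (-0.06, adjusted p = 0.866). Dtx1, a Deltex ubiquitin ligase that binds Notch, had 147 ± 13.7 CPM in Het and 89.7 ± 12.9 CPM in Homo libraries, and fell (log2 -0.71 ± 0.14, adjusted p = 0.00552; -0.20 with the GC correction). The other 2 calls, named after their values were seen, were Nedd4, a ubiquitin ligase, at log2 0.42, and Numbl, a relative of Numb, at -0.47. With the GC correction Nedd4 was at 0.19 and Numbl at -0.23, and neither passed. Numb, which antagonizes Notch, stood at 20.3 ± 6.23 and 20.8 ± 4.70 CPM (adjusted p = 0.948). Of 7 genes for ligand endocytosis, 0 rose, 2 fell and 5 did not pass, the 2 being the dynamin genes Dnm1 (log2 -0.53 ± 0.13, adjusted p = 0.0159) and Dnm2 (-0.51 ± 0.12, adjusted p = 0.0154), neither of which passed after the GC correction (-0.17 and -0.16). Dnm1 was not called without Homo 10, 11 or 12, and Dnm2 without Homo 10 or 12, at adjusted p of 0.0519 to 0.0603, and Dnm1 was not called without Het 3 and Homo 12 together (-0.46, adjusted p = 0.0527). With exon-exon reads Dnm1 was at -0.14 (adjusted p = 0.601) and Dnm2 at -0.36 (adjusted p = 0.183). Of 8 protease genes, Adam10, which makes the outer cut in Notch, rose (log2 0.45 ± 0.12, adjusted p = 0.0218) and Ncstn, the gamma-secretase subunit nicastrin, fell (-0.59 ± 0.18, adjusted p = 0.0426), both named after their values were seen. After the GC correction Adam10 was at 0.02 and Ncstn at -0.49 (edgeR adjusted p = 0.962 and 0.145).

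The remaining receptors, ligands and targets gave no call in exon reads. Of 8 other receptors and ligands 0 passed in edgeR (3 at an unadjusted p under 0.05, 0 in DESeq2), of 4 tested glycosylation genes 0 passed (0 and 0), and of 7 tested other targets 0 passed (1 and 0). Jag1 stood at 20.2 ± 5.60 and 10.7 ± 5.69 CPM (log2 -0.92 ± 0.38, adjusted p = 0.120), and the non-canonical ligand gene Dlk1 at 259 ± 36.1 and 210 ± 41.2 CPM (log2 -0.30, adjusted p = 0.203). The endothelial genes Notch4 (9.55 ± 2.19 and 10.9 ± 4.96 CPM, adjusted p = 0.794) and Dll4 (3.54 ± 1.92 and 4.81 ± 2.77 CPM, adjusted p = 0.722) did not pass. The Notch target Hey1 had 30 and 43 exon reads and Lfng, a glycosyltransferase acting on Notch, 29 and 37 in Het and Homo libraries, both under the filter. Id4, a helix-loop-helix inhibitor named after its values were seen, was called lower only after the GC correction (log2 -0.11 before and -0.51 after, adjusted p = 0.662 and 0.0489). A separate list of 7 proneural genes lies outside the pathway lists. Of its 4 tested genes, 0 rose, 1 fell and 3 did not pass in edgeR, where 13.1% of all tested genes were called. The gene that fell was Insm1, a zinc finger gene of neuronal differentiation named after its values were seen. Insm1 was at log2 -0.81 (edgeR adjusted p = 0.0207) and at -0.29 after the GC correction.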

How the data were processed

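RNA-seq libraries of sorted fetal hypothalamic cells were analysed as deposited, 1 table per library, with genotypes from the labels. Per the file headers the authors gave whole-number counts of exon, intron, gene and exon-exon reads for 51826 genes, and RPKM and TPM values. RPKM deposited by the authors served for levels between genes, and TPM deposited by the authors were tabulated without a test. Builds are GRCm38 and mm10, per the submitters' processing notes. The sources used here do not name the aligner or counter, or say how strand was used.

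Total exon reads were tested in edgeR 4.0.16 (R 4.3.3) with filterByExpr, TMM scaling and the quasi-likelihood F test, Homo against Het, with Benjamini-Hochberg adjustment over all tested genes and a threshold of 0.05. Intron reads were fitted the same way. The SE is the size of the log2 fold change over the square root of F. CPM use TMM-scaled library sizes. The script was tested on simulated data. Exact permutation tests (SciPy 1.17.1) compared log2(CPM + 1) and intron shares, two-sided, over 35 splits. Intron shares were compared for genes with at least 20 gene reads in every library. GC content is that of the longest GENCODE M21 transcript, known for 99.8% of tested genes, and the correction used a lowess trend per library as an offset. Alternatives included DESeq2 1.42.0, other filters, other reads and each library left out. The first bases of motif matches are counted from the RefSeq start as 0.

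The 10 genes, the pathway lists and the marker lists were chosen with earlier results of these data known. Named genes beyond the 10 were the 8 other pathway genes with the smallest p among those called, and genes fixed by name. Other called genes in the lists were named after their values were seen, and are marked so. Of each marker list the genes with the highest and lowest mean CPM were named, plus Cldn5 and Col1a1 for their zeros and Sox2 as an exception. Intron-share p-values are unadjusted. The 2-library exclusion and the exon-exon fit were added after seeing the data. A few listed genes, and the lists summed with them, are not reported here.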

Additional observations from a re-analysis of the deposited data

Results flagged for a closer look

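Within groups of 4 libraries, 50 sets of values of the 10 genes were screened for a library far from the other 3, and chance flags about 1 set in 20. Library Het 3 stood out for Notch2 exon reads, at 38.1 CPM against 12.3 to 15.2 CPM in the other Het libraries. Het 3 also stood out for Notch3 exon reads, at 15 CPM against 4.34 to 5.23 CPM. Library Homo 9 stood out for Notch3 intron reads, at 2.74 CPM against 12.9 to 14.1 CPM in the other Homo libraries. Homo 9 stood out as well for the intron share of Mib1, at 33.3% against 41.5% to 42.7%.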

How the results depend on the processing

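The count of the 10 genes called was 2 of 8 tested. It was 0 after the GC correction, with gene reads including introns and with intron reads (edgeR; 1, 3 and 1 at an unadjusted p under 0.05). Exon-exon reads gave 1 of 5 tested. The count was 1 without libraries Het 3 and Homo 12, and 1 to 2 over the fits without a library. The count over all genes was 1603 of 12257 tested. It was 297 of 12238 after the GC correction, 778 of 7066 with exon-exon reads, 6 of 19551 with gene reads and 96 of 17010 with intron reads. Without a library it was 734 to 2077 (734 without Het 2, 836 without Homo 11, 840 without Homo 12, 911 without Homo 10 and 985 without Het 1). Calls were 53.2% higher in the main fit, 35.8% with a filter of 1 CPM in 4 libraries, 36.4% without a filter and 63.2% with exon-exon reads. The count of other pathway genes, 15 of 65 tested, was 2 after the GC correction, 0 of 72 with gene reads and 0 of 60 with intron reads (25 and 17 at an unadjusted p under 0.05). It was 8 without Het 3 and Homo 12, and 5 to 14 without a library (5 without Homo 12, 7 without Homo 11, 8 without Het 2 and 8 without Homo 10). Shares of all genes at an unadjusted p under 0.05 were not counted. Jag2 did not pass at log2 -0.87 with gene reads, -0.75 with intron reads, -0.11 after the GC correction, -0.67 with exon-exon reads, -0.69 without Het 3 and Homo 12. Without a library Jag2 was at -0.76 to -0.54 and lost its call in 6 of 8 fits, passing without Het 3 or Homo 10. Mib1 did not pass at 0.23 with gene reads, 0.046 with intron reads and 0.29 after the GC correction, and was at 0.51 to 0.72 without a library.

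Direction turned for Notch1 without Het 3 (0.11) and with intron reads (0.18), for Notch2 (-0.51) and Notch3 (-0.37) without Homo 12, for Notch2 as a difference of mean log2(CPM + 1) (-0.020), for Dll3 with intron reads (0.11), for Hes6 after the GC correction (0.042), and with intron reads for Hdac2 (-0.41), Fbxw7 (-0.059) and Cir1 (-0.0076). Leaving out a library gave -1.15 to 0.11 for Notch1, -0.51 to 1.00 for Notch2 and -0.37 to 0.92 for Notch3. Within intron reads, leaving out a library gave -0.20 to 0.54 for Notch1, 0.19 to 0.62 for Notch2, 0.18 to 0.87 for Notch3, -1.23 to -0.23 for Dll1, -0.071 to 0.25 for Dll3 and -0.12 to 0.16 for Mib1. The cause of these shifts was not tested. Of 148 alternative values of the tested members in exon reads, 125 kept direction and side of the threshold, 14 lost and 2 gained a call, and 7 changed sign. Only called genes can lose a call, so all 14 losses were of Jag2 and Mib1. The exact permutation test entered the 148 with its unadjusted p, under which Dll1 passed. No paired analysis was possible because the Het and Homo libraries share no number. Hes1, Hes5, Dll3 and the Hes6 introns are limited by depth.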
